A study of Mus musculus with 6 samples.

Results

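The genes described here encode 9 isoforms of 5 glycolytic steps, measured in whole kidneys of a mouse model of polycystic kidney disease. They are the hexokinases Hk1 and Hk2, the phosphofructokinases Pfkl, Pfkm and Pfkp, the aldolases Aldoa and Aldoc, the pyruvate kinase Pkm and the lactate dehydrogenase subunit Ldha. Each was taken as the transcript cluster, the probe group that the array summarises to a single value, whose only gene symbol in the platform annotation was the gene's own. All 9 were found, with 1 cluster each, among the 22086 genes tested. The rule itself uses gene names, but the isoforms were proposed with earlier results of these data known, so their counts are a description.

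All mice were female and carried a transgene labelled Pkd1 miR. The treated mice received metformin by intraperitoneal injection at 150 mg per kg per day, and the controls received saline injections. Treatment ran between postnatal days 35 and 63, and kidneys were taken on day 63. Each group had 3 arrays, labelled as biological replicates. The labels name neither the promoter of the transgene nor any shared litters, and the p-values measure the spread between these samples.

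Glycolysis splits glucose into pyruvate in the cytosol. Hexokinase traps glucose as glucose 6-phosphate, phosphofructokinase commits it to the pathway, aldolase cleaves the hexose, pyruvate kinase makes pyruvate and lactate dehydrogenase interconverts pyruvate and lactate. In the kidney the proximal tubule runs mainly on fatty acids and makes glucose, while later segments rely more on glycolysis. Cyst epithelium in polycystic disease has been described as more glycolytic than normal tubule. Metformin inhibits mitochondrial complex I and activates the energy sensor AMPK.

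The deposited log2 values reached 19.9, above the usual range of scanner intensities, and how they were scaled is not stated, so every difference and fold here holds on the deposited scale. The arrays correlated closely as a whole, but their distributions differed between the groups. Upper quartiles were 7.21 to 7.34 log2 units on the metformin arrays and 7.01 to 7.12 on the saline arrays, without overlap. Array medians lay between 4.67 and 4.86 log2 units, and correlations across all clusters were 0.994 to 0.996 within metformin, 0.993 to 0.995 within saline and 0.984 to 0.993 between the groups. The tissue label fits the bright signal of Slc34a1, the sodium-phosphate cotransporter of the proximal tubule. It was at 18.15 to 18.50 log2 units on the metformin arrays and 18.60 to 18.69 on the saline arrays. All 10 proximal tubule markers were among the genes tested, but a mean above 4.03 log2 units sufficed for that. In a whole organ, fewer cells of a type and less RNA per cell cannot be told apart.

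After metformin 3 of the 9 isoforms fell, none rose and 6 did not pass the test. Aldoc, the aldolase best known from brain, fell 2.34-fold, the muscle-type phosphofructokinase Pfkm 1.80-fold and Ldha 1.48-fold. The limma test with Benjamini-Hochberg adjustment over all genes called 15.8% of them at an adjusted p under 0.05, 6.71% higher and 9.08% lower. The groups did not overlap in 5 of the 9 isoforms, against 37.3% of all genes. Metformin was the lower group in 4 of these, against 19.4% of all genes, and the higher group in 1, against 17.8%. The median change of the isoforms was -0.24 log2 units, metformin minus saline, against 0.02 over all genes.

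**Figure D1:**
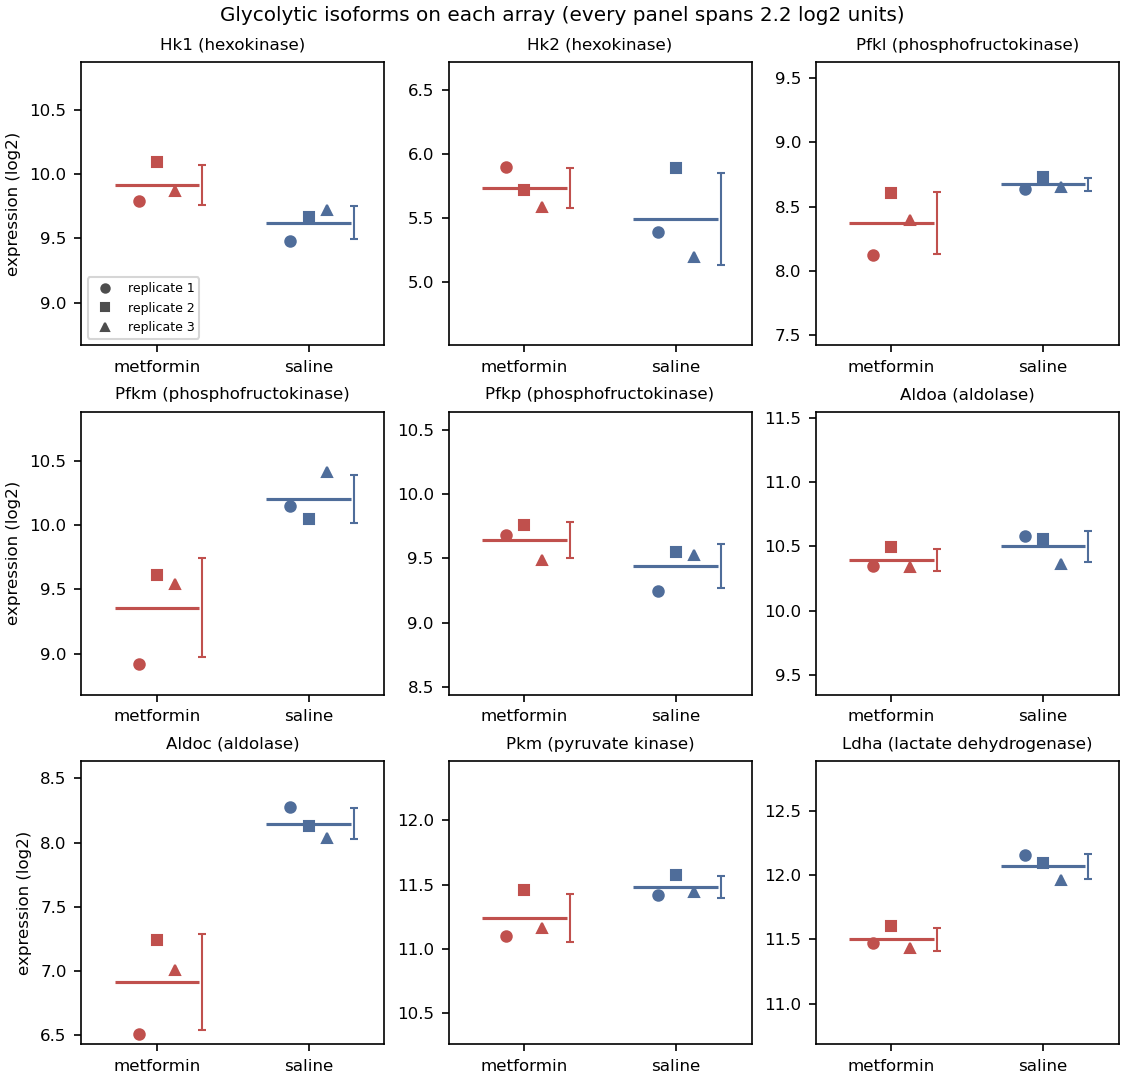
Expression of each isoform (y axis, log2 units) on the 3 metformin arrays (red, left) and the 3 saline arrays (blue, right) of each panel; symbols give the replicate number, bars the group mean and whiskers the SD. Aldoc, Pfkm and Ldha had all metformin arrays below all saline arrays and passed the test, while Hk2, Pfkp, Aldoa and Pkm overlapped between the groups. Hk1, with metformin higher, and Pfkl, with metformin lower, did not overlap either but did not pass.

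Hk1 is the widely expressed hexokinase of brain and red blood cells, and it binds the outer mitochondrial membrane. It had 9.79, 10.09 and 9.87 log2 units on metformin arrays 1, 2 and 3, against 9.48, 9.67 and 9.72 on saline arrays 1, 2 and 3. All metformin arrays were above all saline arrays, yet the change of 0.29 ± 0.12 (SE) did not pass the test (adjusted p = 0.135 by limma). Hk2, the insulin-responsive hexokinase of muscle and fat, was the dimmest isoform relative to all genes, at the percentile 34 of mean signal. It had 5.90, 5.72 and 5.59 log2 units on metformin arrays 1, 2 and 3, against 5.39, 5.89 and 5.19 on saline arrays 1, 2 and 3. The groups overlapped because saline array 2 was nearly as high as the highest metformin array. The change was 0.24 ± 0.18 (SE), with a 95% interval of -0.19 to 0.67 (adjusted p = 0.41 by limma).

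The array cannot rank isoforms by level, since probes differ in brightness, but the balance of a pair can be followed from array to array. For this the log2 value of an isoform was subtracted from that of its partner on the same array, and the means of that difference were compared between the groups. The balance was taken in 7 pairs of isoforms of the same step. The exact permutation test on 3 against 3 arrays cannot go below a two-sided p of 0.1. Its p-values here therefore only say whether the groups separated completely. After adjustment over the 7 pairs, the separated pairs had an adjusted permutation p of 0.14. Each of the 7 pairs holds a gene whose own groups did not overlap, as was so for 37.3% of all genes. No share of separated balances was taken over all pairs of genes, so their number is a description.

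The hexokinase pair showed no separation. Hk2 minus Hk1 moved by -0.05 log2 units, with a 95% interval of -0.78 to 0.68 and an exact two-sided permutation p of 0.9 (n = 3 per group). The interval spans more than a 1.5-fold shift either way, so a shift of that size was not detectable. Hk3, the hexokinase of white blood cells, and the hexokinase-like gene Hkdc1, outside the 9, had changes of 0.19 each and did not pass (adjusted p = 0.264 and 0.22 by limma).

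Phosphofructokinase works as a tetramer of subunits from the 3 genes Pfkl, Pfkm and Pfkp, named for liver, muscle and platelet. Pfkm had 8.92, 9.61 and 9.55 log2 units on metformin arrays 1, 2 and 3, against 10.15, 10.05 and 10.41 on saline arrays 1, 2 and 3. All metformin arrays were below all saline arrays, with metformin array 1 lowest. Pfkm averaged 9.36 ± 0.38 with metformin and 10.20 ± 0.19 with saline (SD, n = 3 per group) and fell by 0.84 ± 0.20 (SE; adjusted p = 0.0309 by limma).

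The call of Pfkm was a narrow one. Its limma adjusted p was 0.0519, 0.053 and 0.0509 without metformin replicates 1, 2 and 3, and 0.0954 and 0.0731 without saline replicates 1 and 3. It stayed under the threshold without saline replicate 2. The change itself kept its sign and lay between -0.97 and -0.62.

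Pfkl had 8.12, 8.60 and 8.40 log2 units on metformin arrays 1, 2 and 3, against 8.64, 8.73 and 8.65 on saline arrays 1, 2 and 3. The groups did not overlap, but metformin array 2 came close to the saline arrays and the change of -0.30 ± 0.13 (SE) did not pass (adjusted p = 0.167 by limma). Pfkp had 9.68, 9.76 and 9.49 log2 units on metformin arrays 1, 2 and 3, against 9.24, 9.55 and 9.53 on saline arrays 1, 2 and 3. Its groups overlapped, with a change of 0.20 ± 0.12 (SE; adjusted p = 0.308 by limma).

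Within this step the balance of all 3 pairs separated the groups. Pfkp minus Pfkm, centred on its mean over the arrays, was 1.0, 0.39 and 0.18 on metformin arrays 1, 2 and 3, against -0.67, -0.26 and -0.64 on saline arrays 1, 2 and 3. The platelet form was therefore 2.07-fold higher relative to the muscle form with metformin, a difference of 1.05 log2 units with a 95% interval of 0.27 to 1.82 (exact permutation p = 0.1, adjusted p = 0.14, n = 3 per group). Pfkm minus Pfkl moved by -0.55 (95% interval -1.0 to -0.09) and Pfkp minus Pfkl by 0.50 (95% interval 0.03 to 0.97), each with the same exact permutation p of 0.1. These 3 balances share their genes and are not separate pieces of evidence.

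Of the aldolase isoforms, Aldoc fell and Aldoa did not pass the test. Aldoc had 6.51, 7.24 and 7.01 log2 units on metformin arrays 1, 2 and 3, against 8.27, 8.13 and 8.04 on saline arrays 1, 2 and 3. All metformin arrays were below all saline arrays, with metformin array 1 lowest. Aldoc averaged 6.92 ± 0.37 with metformin and 8.15 ± 0.12 with saline (SD, n = 3 per group) and fell by 1.23 ± 0.18 (SE; adjusted p = 0.00987 by limma). The call held when each array was left out in turn, at adjusted p = 0.0148 to 0.0467.

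Aldoa, the form of muscle and most other tissues, had 10.35, 10.49 and 10.33 log2 units on metformin arrays 1, 2 and 3, against 10.58, 10.56 and 10.36 on saline arrays 1, 2 and 3. The groups overlapped and the change was -0.11 ± 0.10 (SE), with a 95% interval of -0.35 to 0.14 (adjusted p = 0.529 by limma). Aldoc minus Aldoa, centred on its mean, was -0.93, -0.34 and -0.42 on metformin arrays 1, 2 and 3, against 0.61, 0.49 and 0.59 on saline arrays 1, 2 and 3. The groups separated on this balance as well, with Aldoc 2.18-fold lower relative to Aldoa with metformin, a difference of -1.12 log2 units and a 95% interval of -1.64 to -0.60 (exact permutation p = 0.1, n = 3 per group).

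**Figure D2:**
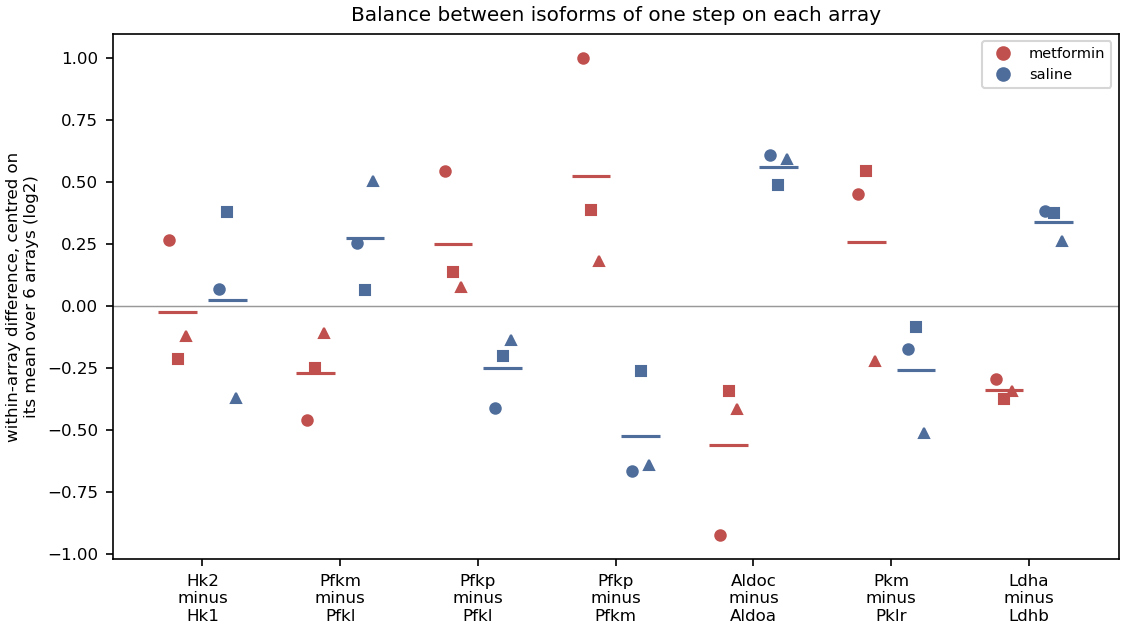
Within-array difference between 2 isoforms of a step (y axis, log2 units, centred on its mean over the 6 arrays) for the 7 pairs, with the 3 metformin arrays in red and the 3 saline arrays in blue; symbols give the replicate number and bars the group mean. The groups separated in 5 pairs and overlapped for Hk2 minus Hk1 and Pkm minus Pklr. Among single genes 37.3% did not overlap between the groups, and no share was taken over all pairs of genes.

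Pkm makes the M1 and M2 splice forms of pyruvate kinase, which a value per transcript cluster does not tell apart. It had 11.10, 11.46 and 11.16 log2 units on metformin arrays 1, 2 and 3, against 11.42, 11.58 and 11.44 on saline arrays 1, 2 and 3. Metformin array 2 lay among the saline arrays, and the change of -0.24 ± 0.12 (SE) did not pass (adjusted p = 0.218 by limma).

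Pklr, the pyruvate kinase of liver, red cells and proximal tubule, lies outside the 9. It had 8.69, 8.95 and 9.42 log2 units on metformin arrays 1, 2 and 3, against 9.62, 9.70 and 9.99 on saline arrays 1, 2 and 3. All metformin arrays were lower, and Pklr fell by 0.75 ± 0.19 (SE; adjusted p = 0.0404 by limma). That call ended without metformin replicates 1 and 2 and without each of the saline replicates, at adjusted p between 0.0545 and 0.117. Pkm minus Pklr moved by 0.52 log2 units, with groups that overlapped and a 95% interval of -0.25 to 1.28 (exact permutation p = 0.3, adjusted p = 0.35, n = 3 per group).

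Ldha encodes the M subunit of lactate dehydrogenase, the form that predominates in glycolytic tissues. It had 11.47, 11.60 and 11.43 log2 units on metformin arrays 1, 2 and 3, against 12.15, 12.09 and 11.96 on saline arrays 1, 2 and 3. The arrays of each group lay close together and the groups were apart. Ldha averaged 11.50 ± 0.09 with metformin and 12.07 ± 0.10 with saline (SD, n = 3 per group) and fell by 0.57 ± 0.10 (SE; adjusted p = 0.0141 by limma). Without saline replicate 1 the adjusted p was 0.0595, and the call held without each of the other arrays.

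Ldhb, the H subunit of heart and other oxidative tissues, had 16.24, 16.45 and 16.24 log2 units on metformin arrays 1, 2 and 3, against 16.25, 16.19 and 16.17 on saline arrays 1, 2 and 3. The groups overlapped, with a change of 0.11 ± 0.10 (SE; adjusted p = 0.486 by limma). Ldha minus Ldhb, centred on its mean, was -0.30, -0.37 and -0.34 on metformin arrays 1, 2 and 3, against 0.38, 0.37 and 0.26 on saline arrays 1, 2 and 3. This balance varied less within the groups than that of any other pair compared, with a pooled SD of 0.05 log2 units. It moved by -0.68 (95% interval -0.80 to -0.55; exact permutation p = 0.1, n = 3 per group), and by -0.37 after quantile normalization. The direction of Ldhb depended on scaling, with a change of -0.19 after quantile normalization, and the cause was not tested.

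**Figure D3:**
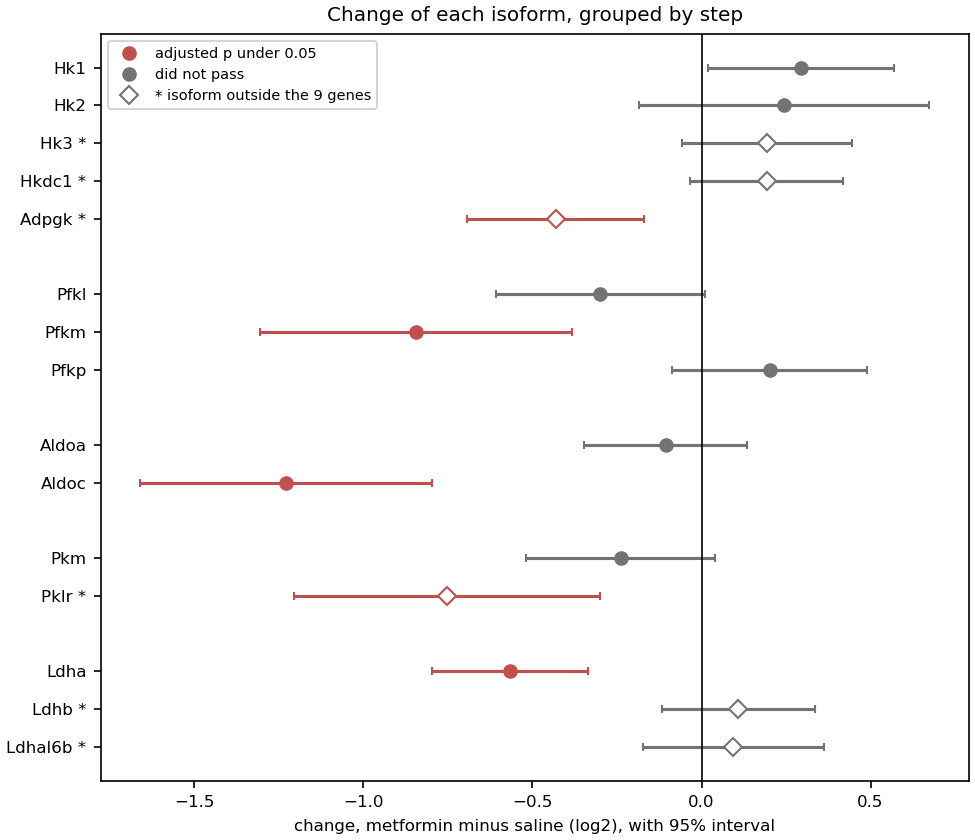
Change of each isoform (x axis, metformin minus saline, log2 units) with the 95% interval of the limma fit, grouped by step; circles are the 9 isoforms, open diamonds other isoforms of the same steps, and red marks an adjusted p under 0.05. Aldoc, Pfkm, Ldha, Pklr and Adpgk lie below 0 and passed the test, and each has a partner in its step that did not pass and has a smaller change.

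Scaling did not alter these calls. Quantile normalization moved the median change of all genes by 0.12 log2 units, to -0.10. Relative to the median, the changes after it were -1.33 for Aldoc, -0.84 for Pfkm and -0.47 for Ldha, against -1.25, -0.86 and -0.59 as deposited. Hk1, Hk2 and Pfkp kept changes above 0 and did not pass under the deposited scale, median-centring or quantile normalization.

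The promoters of the 3 isoforms that fell are printed with that of Aldoa, which did not pass, to show where these genes carry the core of the hypoxia response element, the motif bound by HIF and known from glycolytic genes. The RefSeq table of assembly GRCm38.p6 matched all 9 isoforms, with 18 windows of 300 bases that reach from 250 before to 50 after an annotated start. Windows of alternative starts of a gene can overlap. The most upstream start of each gene in that table is shown, 5′ to 3′ on the gene's strand. Capitals mark ACGTG or GCGTG read on either strand; in CACGTG, the E-box, the core is read on both strands.
Aldoc, chr11:78322823-78323122 of GRCm38.p6, plus strand: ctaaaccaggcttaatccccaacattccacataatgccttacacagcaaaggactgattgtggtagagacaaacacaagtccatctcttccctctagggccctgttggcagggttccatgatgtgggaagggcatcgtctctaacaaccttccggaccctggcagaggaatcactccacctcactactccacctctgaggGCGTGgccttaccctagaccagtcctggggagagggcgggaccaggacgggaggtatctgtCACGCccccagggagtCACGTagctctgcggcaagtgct
Pfkm, chr15:98092339-98092638 of GRCm38.p6, plus strand: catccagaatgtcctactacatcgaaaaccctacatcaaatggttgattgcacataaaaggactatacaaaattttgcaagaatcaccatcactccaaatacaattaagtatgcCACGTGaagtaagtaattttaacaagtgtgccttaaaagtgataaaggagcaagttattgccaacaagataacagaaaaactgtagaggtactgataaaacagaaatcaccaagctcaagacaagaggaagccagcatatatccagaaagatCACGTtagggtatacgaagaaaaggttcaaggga
Ldha, chr7:46845554-46845853 of GRCm38.p6, plus strand: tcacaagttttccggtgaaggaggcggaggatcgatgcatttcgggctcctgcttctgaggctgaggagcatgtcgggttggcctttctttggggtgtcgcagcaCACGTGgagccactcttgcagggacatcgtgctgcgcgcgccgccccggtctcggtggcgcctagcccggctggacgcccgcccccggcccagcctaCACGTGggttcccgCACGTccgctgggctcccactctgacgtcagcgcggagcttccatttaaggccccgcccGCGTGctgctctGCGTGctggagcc
Aldoa, chr7:126800398-126800697 of GRCm38.p6, minus strand: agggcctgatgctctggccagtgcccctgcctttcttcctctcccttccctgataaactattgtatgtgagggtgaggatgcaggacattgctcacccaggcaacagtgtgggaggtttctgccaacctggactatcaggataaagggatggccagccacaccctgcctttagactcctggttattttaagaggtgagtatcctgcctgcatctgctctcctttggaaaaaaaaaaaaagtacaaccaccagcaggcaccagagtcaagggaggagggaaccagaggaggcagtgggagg

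The Ldha window holds 5 stretches of the core, 2 of them E-boxes, and the Aldoc window holds 3. The Pfkm window shown holds 2, with 1 E-box, and is the most AT-rich of the 18, at 36.7% GC. Pfkm windows at its downstream starts have 53.0 to 59.0% GC, hold 2, 1 and 0 stretches and have no E-box. The Aldoa window shown holds none, while both other Aldoa windows, which overlap, hold 1. At least 1 core was found in 14 of the 18 windows, against 43.8% of all 32851 promoter windows, and an E-box in 2, against 7.15%. Windows with a core belong to isoforms that fell and to isoforms that did not pass, such as Hk1 with 4 stretches at its downstream start and Pfkp at its only start. These matches describe letters and not binding, and no test was made of them.

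The rest of the pathway is given from 7 lists with 87 genes, of which 75 were tested. Of these, 25 fell and 3 rose (37.3% called, against 15.8% of all genes). The count changed when an array was left out: 7, 8 and 14 genes were called without metformin replicates 1, 2 and 3, and 2, 24 and 9 without saline replicates 1, 2 and 3. Calls over all genes, 3489 with all arrays, changed in the same fits. They were 1249, 1368 and 1956 without metformin replicates 1, 2 and 3, and 842, 3965 and 1965 without saline replicates 1, 2 and 3. Of the 28 calls only those of Pdha1 and Ero1a held when each array was left out in turn. With limma's trend and robust prior the calls of Slc2a1, Bsg, Mlx and Vegfa ended, and without the filter those of Pdk3 and Mlx. With the adipocyte score described further on as a covariate, 3 of the calls held, those of Slc2a12, Pdk3 and Mlxip.

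**Figure D4:**
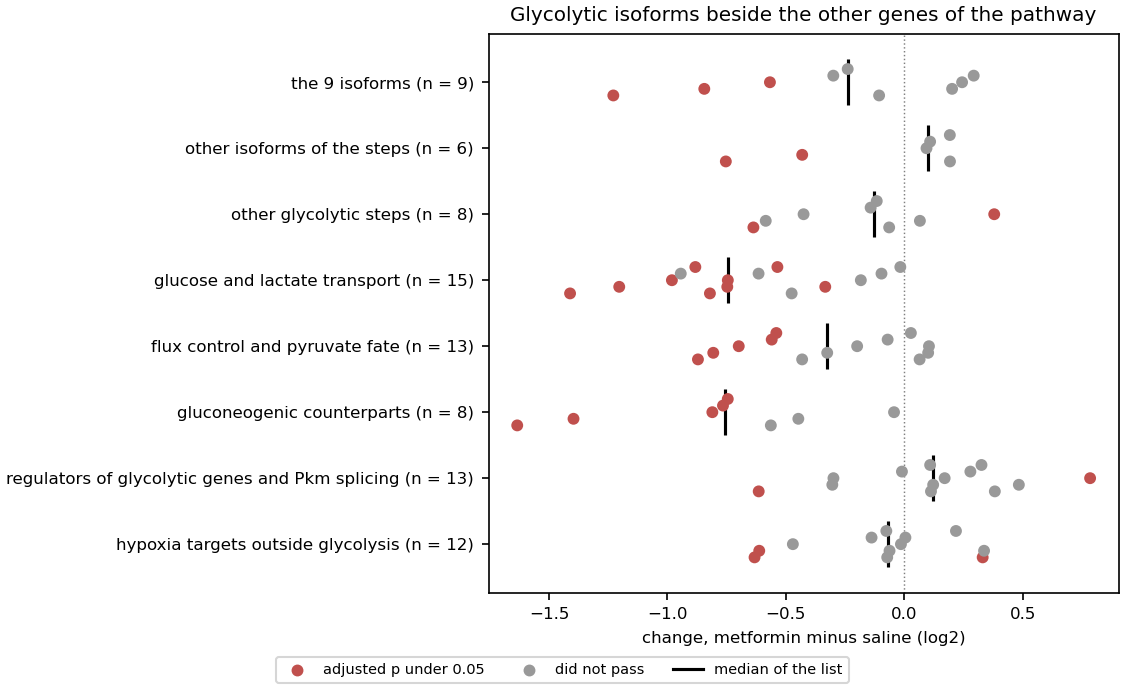
Change of every tested gene (x axis, metformin minus saline, log2 units) in the 9 isoforms and the 7 pathway lists; red points passed the test at an adjusted p under 0.05, grey points did not, and black lines are list medians. The lists of transport and of gluconeogenic counterparts have medians of -0.75 and -0.76, while the isoform list has -0.24 and the lists of other isoforms and of regulators lie at 0.10 and 0.12.

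At the entry and exit of the pathway 9 of 15 transporter genes fell and none rose, with a median change of -0.75 log2 units against 0.02 over all genes. The glucose carriers among them were Slc2a1 (-0.54), the basolateral carrier Slc2a2 (-1.20), the insulin-responsive Slc2a4 (-0.88) and Slc2a12 (-0.82), joined by the fructose carrier Slc2a5 (-1.41). The lactate and monocarboxylate carriers were Slc16a1 (-0.75), Slc5a8 (-0.98) and Slc5a12 (-0.75), with Bsg (-0.33), the chaperone of the Slc16 carriers. The call of Bsg ended with the replicate number as a block (adjusted p = 0.0542). The sodium-glucose cotransporters Slc5a1 and Slc5a2 had changes of -0.62 and -0.94 without passing (adjusted p = 0.0619 and 0.0788), and Slc5a2 and the called Slc5a12 are also among the proximal tubule markers used here.

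Between the steps of the isoforms, 1 of 8 genes fell and 1 rose, with a median of -0.13. The 8 include a cluster named Pgk1 whose chromosome does not match that gene. Phosphoglycerate mutase Pgam1 fell by 0.64 (adjusted p = 0.0325) and the neuronal enolase Eno2 rose by 0.38 (adjusted p = 0.0274). Eno2 was near the dim end, at 4.95 to 5.02 log2 units with metformin and 4.55 to 4.64 with saline, and did not pass after median-centring or quantile normalization. Triosephosphate isomerase Tpi1 had a change of -0.59 (adjusted p = 0.0656) and Gapdh of -0.12 (adjusted p = 0.398). Of the other isoforms of the steps, 2 of 6 fell, Pklr and Adpgk (-0.43, adjusted p = 0.0415), which phosphorylates glucose with ADP.

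Of 13 genes that control phosphofructokinase flux or the fate of pyruvate, 5 fell and none rose, with a median of -0.33. Those that fell were the pyruvate dehydrogenase subunits Pdha1 (-0.81, adjusted p = 0.00795), Pdhb (-0.87) and Dlat (-0.54), the kinase Pdk3 (-0.70) that inhibits the complex and the phosphatase Pdp2 (-0.56) that activates it. Pfkfb3, which makes the activator of phosphofructokinase, had 7.95, 8.22 and 8.03 log2 units on metformin arrays 1, 2 and 3, against 7.86, 8.50 and 7.75 on saline arrays 1, 2 and 3. The groups overlapped and its change was 0.03 (adjusted p = 0.941).

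Of 8 gluconeogenic counterparts, the enzymes that bypass the irreversible steps and the carrier of glucose 6-phosphate, 5 fell and none rose, with a median of -0.76. Fructose bisphosphatases Fbp1 (-0.75) and Fbp2 (-0.81), which oppose phosphofructokinase, were among them, with Pcx (-0.77), G6pc (-1.40) and the carrier Slc37a4 (-1.63). The call of Fbp2 ended with the replicate number as a block (adjusted p = 0.0578). Thus the phosphofructokinase subunit Pfkm and the opposing phosphatases were lower on the same metformin arrays.

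Among 13 regulators 1 rose and 1 fell, with a median of 0.12. Mlxip, a glucose-sensing partner of Mlx, rose by 0.78 (adjusted p = 0.0319, and 0.0502 after median-centring), and Mlx fell by 0.61 (adjusted p = 0.0479, and 0.0683 under the replicate block). Mlxipl, the glucose-sensing factor also called ChREBP, had a change of 0.38 (adjusted p = 0.0896). Hif1a had a change of 0.12 (adjusted p = 0.547) and Ptbp1, a splicing factor that favours the M2 form of Pkm, of -0.01 (adjusted p = 0.956). Of 12 hypoxia targets outside glycolysis, Ero1a (-0.63) and Car9 (-0.61) fell and Vegfa rose by 0.33 (adjusted p = 0.0447), without passing after median-centring or quantile normalization. The list median was -0.07, with 8 changes below 0 and 4 above.

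Markers of several cell types differed between the groups beside these results. All 10 proximal tubule markers had changes below 0 and 3 of them fell, Slc5a12, Slc6a19 and Slc7a9. Their mean deviation was -0.93, -0.34 and -0.04 on metformin arrays 1, 2 and 3, against 0.38, 0.22 and 0.71 on saline arrays 1, 2 and 3. The lowest and highest arrays on this score, metformin array 1 and saline array 3, were also the lowest and highest of Pfkm. Aldoc shared only the lowest array and was highest on saline array 1. Ldha shared neither, with its lowest value on metformin array 3 and its highest on saline array 1. With the score as a covariate in limma, which was added once the data had been seen, the change of Pfkm was -0.18 (adjusted p = 0.738), that of Aldoc -0.85 (adjusted p = 0.263) and that of Ldha -0.64 (adjusted p = 0.206). In this fit 1 gene in all was called.

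All 8 tested adipocyte markers had changes below 0 and 2 of them fell. Their mean deviation was -1.13 to -1.0 on the metformin arrays and -0.41 to 2.33 on the saline arrays. Saline array 3 had the lowest adipocyte score among the saline arrays, still above all metformin arrays. On it Aldoc was at 8.04 and Ldha at 11.96, each the lowest of its saline values. Pfkm was at 10.41 there, the highest of its saline values. For each of these genes the value was above all metformin arrays. With this score as a covariate the change of Aldoc was -1.12 (adjusted p = 0.0858), of Pfkm -1.11 (adjusted p = 0.0879) and of Ldha -0.46 (adjusted p = 0.156). Neither score overlapped between the groups, so a score and metformin cannot be told apart in these fits.

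The mean deviations of later tubule segments and of endothelium separated the groups as well. Of 10 collecting duct markers 4 fell, with a median change of -0.56 and mean deviations of -0.30 to -0.13 on the metformin arrays and 0.01 to 0.34 on the saline arrays. Of 7 markers of thick ascending limb and distal tubule 1 fell, Kcnj1 (-0.74), with a median change of -0.14 and a highest change of 0.12. Their mean deviations were -0.30 to -0.04 on the metformin arrays and 0.08 to 0.23 on the saline arrays. Of 5 endothelial markers 1 fell, Ehd3 (-1.66), with a median change of -0.40 and a highest change of 0.22. Their mean deviations were -0.39 to -0.16 on the metformin arrays and 0.01 to 0.40 on the saline arrays. None of these 3 scores overlapped between the groups, while those of podocytes, smooth muscle, fibroblasts and red cells did. Within these overlapping lists Col1a1 of fibroblasts rose by 1.65, and Myh11 of smooth muscle (-0.87) and Alas2 of red cells (-0.53) fell. The fibroblast median change was 0.78, and the red cell score rests on 3 of 8 listed markers.

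Of 5 skeletal muscle markers tested none passed. Their median change was -0.05, and Acta1 was at 5.12 to 5.34 log2 units with metformin and 5.09 to 5.34 with saline. Of 7 macrophage markers 1 rose, with a mean deviation of 0.10 to 0.54 on the metformin arrays and -1.01 to 0.42 on the saline arrays. Of 5 markers of proliferating cells 4 rose, with mean deviations of 0.27 to 0.65 on the metformin arrays and -0.81 to -0.14 on the saline arrays. The part of these cell types in the isoform changes was not tested.

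**Figure D5:**
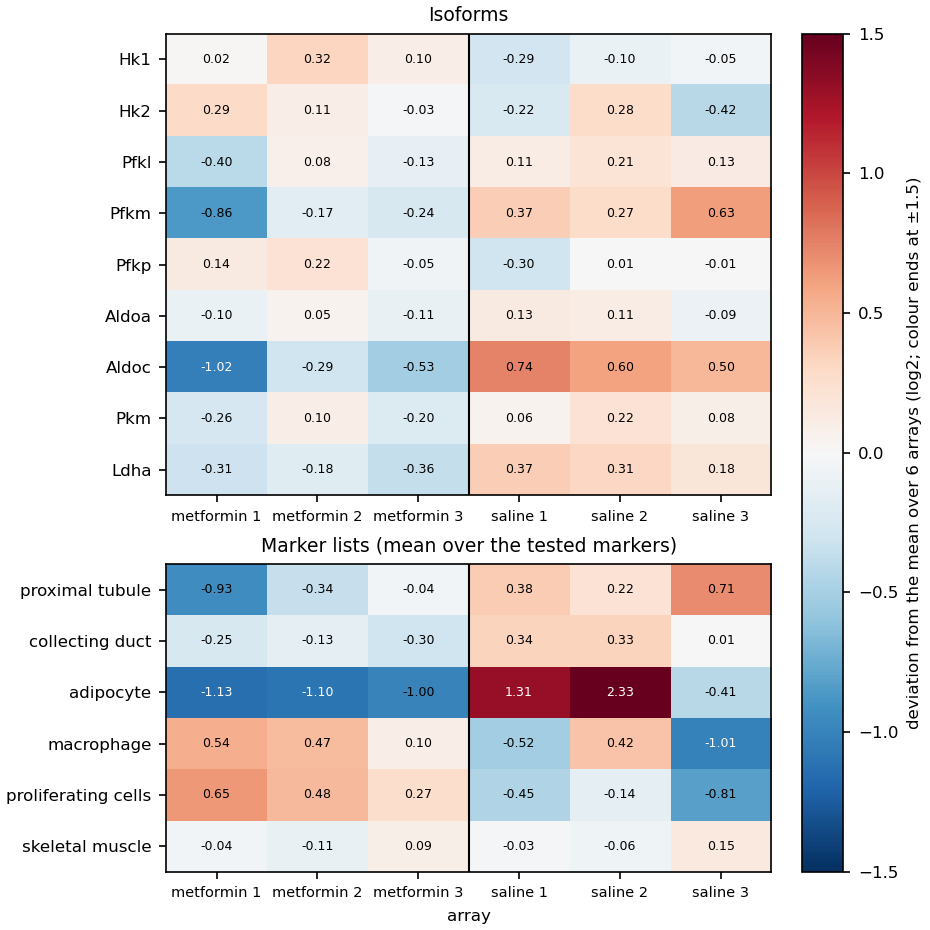
Deviation from the mean over the 6 arrays (colour and numbers, log2 units) of the 9 isoforms (upper panel) and of 6 marker lists, each the mean over its tested markers (lower panel), with the metformin arrays left of the line and the saline arrays right of it. Aldoc, Pfkm and Ldha were below their mean on every metformin array, and Pfkm and the proximal tubule list were both lowest on metformin array 1 and highest on saline array 3. Aldoc was lowest on metformin array 1 and Ldha on metformin array 3, and both were highest on saline array 1.

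The genes whose deviations lay nearest to those of each isoform, by root mean square difference over the 6 arrays, were found among all genes tested. Nearest to Aldoc were the pantetheinase Vnn1 (0.06 log2 units), the GTPase Rab1b and the quinone reductase Nqo1. Nearest to Pfkm were the complex I subunit Ndufs8 (0.04), the glucose carrier Slc2a4 (0.05) and the retinol saturase Retsat (0.05). Nearest to Ldha were Tbc1d7, a subunit of the TSC complex, Spcs2, a subunit of signal peptidase, and the splicing factor Plrg1, each at 0.03. All 9 of these fell, at adjusted p of 0.00735 to 0.0458, which follows from choosing them for their likeness to isoforms that fell.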

How the data were processed

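Total RNA of whole kidneys was labelled, per the labels' protocols, with Affymetrix WT PLUS reagents. The authors deposited 1 log2 value for each transcript cluster and array; the submitters' processing notes name RMA and, in version 4.0, Transcriptome Analysis Console, and no setting or build was found there. Of 65956 clusters, 30604 had 1 gene symbol (2146 several, 33206 none listed), updated through the Entrez number with the RefSeq table of assembly GRCm38.p6 (22818 matched). The 33.3% of clusters with the lowest mean were left out (4.03 log2 units or under), and the cluster with the highest mean stood for a gene. The groups were compared with limma 3.58.1 over 22086 genes with Benjamini-Hochberg adjustment, and isoform balances with exact permutation tests. The fit was tested on simulated data.

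Same-numbered arrays deviated together from their group means (correlations across genes 0.118, 0.145 and 0.541), which was taken as a pairing and fitted as a block in an alternative, although metformin 1 correlated more with saline 2 (0.299). Other alternatives were left-out arrays, scalings, filters, the mean over clusters, trend and robust priors, array weights and marker scores as covariates. The text names all 9 isoforms, the pathway genes past the threshold and the 3 of each list with the smallest p. Nearest profiles were found for every isoform and are named for Aldoc, Pfkm and Ldha only. Gapdh, Pfkfb3, Hif1a, Ptbp1, Hk3, Ldhb, Slc5a1 and Slc5a2 were named after their values were seen. Members and lists were chosen with earlier results of these data known. The cluster named Pgk1 has a cluster number of chromosome 12 while RefSeq places the gene on X, and it stays in the counts but is not described. Some genes of the pathway are not reported here. The number of arrays limits the precision.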

Additional observations from a re-analysis of the deposited data

How the results depend on the processing

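The 3 isoform calls held, with the same 3 isoforms, under the replicate block, both scalings, both other filters, the mean over clusters, the trend and robust prior and array weights. Leaving out single arrays gave 1 to 3 isoform calls, 842 to 3965 calls over all genes in place of 3489, and 2 to 24 pathway calls in place of 28. With the adipocyte score as covariate the counts were 0 isoforms, 654 genes and 3 pathway genes, and with the proximal tubule score, chosen after seeing the data, 0 isoforms, 1 gene and 0 pathway genes; these fits have 1 residual degree of freedom fewer and scores that did not overlap between the groups. With the replicate block 4373 genes were called, and it ended no isoform call. Of the calls over all genes 42.5% were higher on the deposited scale, 25.2% with arrays centred on the median and 20.7% with quantiles matched. The balance of Ldha minus Ldhb was -0.37 after quantile normalization in place of -0.68; the cause was not tested. Among changes that did not pass, the sign turned for Ldhb after quantile normalization (-0.19), for Aldoa with the adipocyte score (0.0599) and for Hk2 with the proximal tubule score (-0.25). A planned balance of a further isoform pair was not run.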
